A study of Mus musculus with 2 samples.

Results

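The genes that make cholesterol, fatty acids and the lipids of myelin were followed step by step in adult mouse cerebellum. The set holds 38 genes, taken from a list of names and matched by Ensembl gene identifier. All 38 were found once each among the 43346 genes of the mm10 quantification, of which 21474 are protein-coding. RNA sequencing had been carried out on 2 libraries of cerebellum from C57BL/6J mice, a standard inbred laboratory strain, aged 8 weeks, with no treatment or allele named. Both libraries belong to a single group, and the labels number them as replicates 1 and 2. There is no contrast between conditions, so the data describe levels, transcript models and the spread between the 2 libraries.

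Brain cholesterol is made locally, because lipoproteins of the blood do not cross the blood-brain barrier. Acetyl-CoA is turned into mevalonate, then squalene, then lanosterol, and a last set of enzymes trims and reduces lanosterol to cholesterol. The transcription factors SREBP1 and SREBP2, held in or released from the endoplasmic reticulum by INSIG and SCAP proteins, are known to drive the genes of sterol and fatty acid synthesis. Oligodendrocytes use much of the product for myelin, whose membranes are rich in cholesterol, galactolipids and very long-chain fatty acids.

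The label on sex gives a pool of male and female tissue for each library, but Xist, the RNA of the inactive X chromosome, had 45928 counts in replicate 1 and 26 in replicate 2. The Y-linked genes Kdm5d, Uty, Ddx3y and Eif2s3y had 0 counts each in replicate 1 and 1328 to 3776 in replicate 2, so these libraries go against the label on sex. These counts show that the tissue of the libraries was not of one composition by sex. The labels give one donor record for both and no number of animals, so each SD is the spread between these 2 libraries, in which sex and replicate cannot be told apart. Total expected counts, the estimated fragments per gene summed over all entries, were 83109117 and 84279927. Markers of granule neurons (5 of 5) and Purkinje neurons (5 of 5) were at 10 TPM or more in both libraries, as the tissue label says. The 5 choroid plexus markers were 1.11 to 1.69 lower on the log2 scale in replicate 2, and 5 red cell genes were 1.16 to 1.44 higher.

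A few stretches of promoter sequence are shown because the results below turn on their genes. Each is the 250 bases before a RefSeq transcription start on GRCm38, the build of mm10, and none overlaps an annotated exon. The first belongs to Hmgcs1, the most abundant of the 18 sterol synthesis enzymes in the set, at chr13:119690101-119690350 on the plus strand. Its capitals mark a TCACNCCAC match, the core of a sterol regulatory element, which starts 137 bases before the start site.
Hmgcs1: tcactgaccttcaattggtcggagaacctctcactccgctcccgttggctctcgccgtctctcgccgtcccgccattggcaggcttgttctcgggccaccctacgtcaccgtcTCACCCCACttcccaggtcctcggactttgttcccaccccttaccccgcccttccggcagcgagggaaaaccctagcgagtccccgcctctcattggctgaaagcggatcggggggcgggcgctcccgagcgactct
The other stretches lie before the alternative first exons of Srebf1, the gene of SREBP1, on the minus strand of chromosome 11. The 1a stretch is chr11:60220628-60220877 and the 1c stretch is chr11:60210472-60210721. Their capitals mark CCAAT and GGGCGG matches on either strand, the letters read by NF-Y and Sp1.
Srebf1a: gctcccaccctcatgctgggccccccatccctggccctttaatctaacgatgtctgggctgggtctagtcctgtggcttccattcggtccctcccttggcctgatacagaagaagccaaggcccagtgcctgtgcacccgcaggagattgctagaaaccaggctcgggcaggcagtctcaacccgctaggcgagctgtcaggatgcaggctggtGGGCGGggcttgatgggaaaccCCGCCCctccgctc
Srebf1c: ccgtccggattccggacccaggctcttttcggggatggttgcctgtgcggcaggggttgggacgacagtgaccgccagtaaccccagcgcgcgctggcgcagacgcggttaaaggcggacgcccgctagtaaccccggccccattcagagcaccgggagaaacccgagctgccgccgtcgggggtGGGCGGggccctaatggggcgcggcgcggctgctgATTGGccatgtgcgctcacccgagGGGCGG

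Transcripts of every step of the pathway were present at moderate levels. All 38 genes reached 1 TPM (a transcript level corrected for transcript length and library size) in both libraries, as 60.9% of all protein-coding genes did. At 10 TPM there were 35 of 38, against a background of 40.0%. The 3 genes at 100 TPM or more were Apoe, Scd2 and Fasn, against a background of 5.71%. Counting protein-coding transcript models only, 2 of them remained, because Fasn had 39.4 TPM on such models. The median of the 38 was 43.1 TPM in replicate 1 and 41.5 TPM in replicate 2, and the median gene ranked at percentile 83.6 among protein-coding genes. Levels ran from 6.64 TPM for Abca1 to 1839 TPM for Apoe, and 31 of 38 genes lay between 20 and 100 TPM. The share of all genes in that band was not computed.

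**Figure D1:**
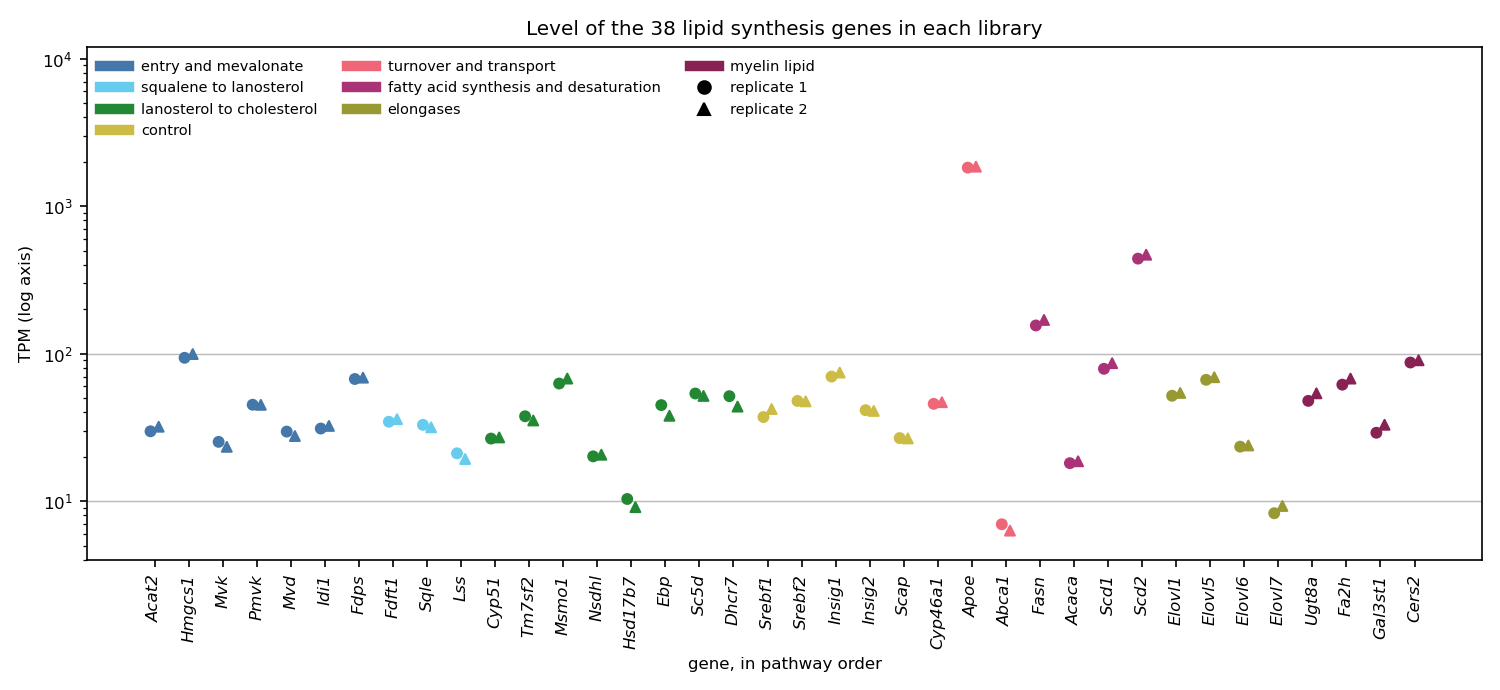
Level of each of the 38 genes in TPM on a log axis, in pathway order and coloured by step, with a circle for replicate 1 and a triangle for replicate 2; grey lines mark 10 and 100 TPM. Most genes lie between 20 and 100 TPM, Apoe stands highest at 1839 TPM and Abca1 lowest at 6.64 TPM.

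The median of the 18 enzymes of sterol synthesis was 33.8 TPM, and 16 of 18 lay between 20 and 70 TPM, a band also without a computed share of all genes. The exceptions were Hmgcs1 at 96.5 TPM and Hsd17b7 at 9.72 TPM, a span of 9.93-fold. On protein-coding models only, 15 of 18 lay in that band, Lss was lowest at 5.61 TPM and the span was 17.2-fold.

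Among the entry and mevalonate enzymes, Hmgcs1, which condenses acetyl-CoA with acetoacetyl-CoA to HMG-CoA, had 93.7 TPM in replicate 1 and 99.3 TPM in replicate 2 (96.5 ± 3.97, SD, n = 2). Fdps, which joins the isoprene units to farnesyl diphosphate, followed with 67.3 and 68.7 TPM (68.0 ± 1.00). These values did not overlap, so Hmgcs1 was the higher of the pair in each library, by 1.39-fold and 1.45-fold. Pmvk, the phosphomevalonate kinase, had 45.1 and 45.0 TPM. The remaining enzymes, Acat2 (acetoacetyl-CoA thiolase), Mvk (mevalonate kinase), Mvd (the decarboxylase) and Idi1 (the isomerase), had means of 24.3 to 31.7 TPM. Acat2 had 29.8 and 32.0 TPM and Idi1 31.1 and 32.4 TPM, so these values overlapped, and Mvd lay just below them with 29.6 and 27.6 TPM. Mvk was lowest with 25.2 and 23.3 TPM.

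Between farnesyl diphosphate and lanosterol, Lss was the lowest of 3 enzymes. Fdft1, the squalene synthase, had 34.5 and 36.0 TPM, and Sqle, the squalene epoxidase, had 32.9 and 31.7 TPM. Lss, which closes the sterol rings, was lower at 21.1 and 19.3 TPM (20.2 ± 1.27). On protein-coding models only, Lss had 5.61 ± 0.346 TPM (n = 2), against 35.2 TPM for Fdft1 and 31.3 TPM for Sqle, 6.29-fold below Fdft1.

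From lanosterol to cholesterol the order was Msmo1, Sc5d, Dhcr7, Ebp, Tm7sf2, Cyp51, Nsdhl and Hsd17b7. Msmo1, a sterol C4 oxidase, had 62.7 and 67.8 TPM (65.2 ± 3.56). Sc5d, the sterol C5 desaturase, had 53.7 and 51.7 TPM (52.7 ± 1.42). Msmo1 stood above Sc5d in both libraries by the level of the gene, but not on protein-coding models, where it had 32.4 TPM against 52.7 TPM. Dhcr7, a sterol reductase of the last steps, had 51.5 and 43.7 TPM (47.6 ± 5.48). Ebp, the sterol isomerase, had 44.8 and 37.9 TPM (41.3 ± 4.88). Dhcr7 and Ebp had the largest differences between libraries of this step, and their ranges overlapped each other.
Tm7sf2, a sterol C14 reductase, had 37.6 and 35.2 TPM, and Cyp51, the lanosterol demethylase, had 26.6 and 27.0 TPM. Nsdhl, which acts in C4 demethylation, had 20.1 and 20.6 TPM. Hsd17b7, the ketoreductase of the same C4 complex, was lowest with 10.3 and 9.10 TPM. These 4 genes kept one order in both libraries. On protein-coding models Ebp had 25.2 TPM and Tm7sf2 22.3 TPM, both below the 26.2 TPM of Cyp51, so the order of this step depends on models that are not protein-coding.

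The control genes were all at 20 TPM or more. Insig1, which retains SCAP in the endoplasmic reticulum and is itself known as an SREBP target, had 69.9 and 74.4 TPM (72.2 ± 3.19). Its relative Insig2 had 41.4 and 40.9 TPM, so Insig1 was 1.69-fold and 1.82-fold higher. Srebf2, whose product mainly serves sterol genes, had 47.8 and 47.5 TPM. Srebf1, whose product mainly serves fatty acid genes, had 37.2 and 42.1 TPM. Srebf2 was above Srebf1 by 1.29-fold and 1.13-fold, and the sets of values did not overlap. On protein-coding models the gap was wider, with 25.2 and 26.5 TPM for Srebf1 against 47.8 and 47.5 TPM for Srebf2. Scap, the escort of both factors, had 26.8 and 26.6 TPM.

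Turnover and transport held the highest and the lowest gene. Apoe, the main apolipoprotein of the brain, released largely by astrocytes, had 1825 and 1852 TPM (1839 ± 19.1). Abca1, which loads cholesterol onto apolipoproteins, had 6.97 and 6.31 TPM (6.64 ± 0.467), 262-fold and 294-fold below Apoe. Cyp46a1, the neuronal cholesterol 24-hydroxylase through which the brain disposes of cholesterol, had 45.7 and 46.9 TPM. It thus lay at the level of the synthesis enzymes.

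Fatty acid synthesis and desaturation had the highest median of the 8 steps, 117 TPM in replicate 1 and 128 TPM in replicate 2. On protein-coding models it was 61.0 TPM, against 55.5 TPM for the next step, myelin lipid synthesis. Scd2, the main stearoyl-CoA desaturase of brain (chr19:44293674-44306864 on GRCm38, plus strand), had 441 and 469 TPM (455 ± 19.5). Its neighbour Scd1 (chr19:44394455-44407879, minus strand) had 78.9 and 86.2 TPM, so Scd2 was 5.59-fold and 5.44-fold higher. Fasn, the fatty acid synthase (chr11:120805846-120824547, minus strand), was listed at 155 and 169 TPM (162 ± 9.86). Acaca, which makes the malonyl-CoA that Fasn uses, had 18.1 and 18.6 TPM, 8.58-fold and 9.08-fold below Fasn. That ratio rests on transcript models that are not protein-coding: counting protein-coding models only, Fasn had 39.4 ± 2.31 TPM (n = 2) and Acaca 17.4 ± 0.58 TPM.

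Of the elongases, which add carbon pairs to fatty acids, Elovl5 (polyunsaturated chains) had 66.5 and 69.2 TPM and Elovl1 (very long saturated chains) had 51.8 and 54.1 TPM. Elovl6, which extends palmitate, had 23.4 and 23.9 TPM. Elovl7 had 8.28 and 9.27 TPM, 8.03-fold and 7.47-fold below Elovl5. The order of the 4 was the same in both libraries.

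The 4 genes of myelin lipid synthesis had a median of 57.8 TPM. Cers2, the ceramide synthase for very long chains, had 87.1 and 90.1 TPM (88.6 ± 2.15). Fa2h, which hydroxylates the fatty acid of myelin galactolipids, had 61.7 and 67.7 TPM (64.7 ± 4.30). Ugt8a, which adds galactose to ceramide, had 47.9 and 53.8 TPM (50.8 ± 4.23), and Gal3st1, which sulfates the product to sulfatide, had 29.1 and 32.9 TPM (31.0 ± 2.72). The order Cers2, Fa2h, Ugt8a, Gal3st1 held in both libraries, and all 4 were higher in replicate 2.

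A second list held other genes of these pathways in 4 groups, described here by counts. For each group the background at 10 TPM or more in both libraries is the same 40.0% of all protein-coding genes. Of 8 other genes of sterol synthesis, 7 were at 10 TPM or more in both libraries. Por, the electron donor of the sterol oxidases, had 64.4 and 54.6 TPM, and Acat1, the mitochondrial thiolase, had 53.5 and 50.8 TPM. Of 27 genes of sterol uptake, trafficking and control, 24 reached 10 TPM.
Clu, a second apolipoprotein of glia, had 546 and 513 TPM, Apod had 242 and 290 TPM, and the lipoprotein receptor Lrp1 had 227 and 232 TPM. Ch25h, the cholesterol 25-hydroxylase, was lowest with 0.38 and 0.23 TPM. Of 25 genes of fatty acid supply, elongation and desaturation, 20 reached 10 TPM.
Tecr, the reductase that ends each elongation cycle, had 710 and 647 TPM, Fabp3 had 144 and 124 TPM, and Acsl6 had 127 and 120 TPM. Elovl3 had 1 count in replicate 1 and 0 in replicate 2. Of 30 sphingolipid and ether lipid genes, 24 reached 10 TPM. The highest were Psap, the saposin precursor (1371 and 1306 TPM), St3gal5 (84.4 and 81.4 TPM) and Degs1 (71.4 and 72.7 TPM), and Sptlc3 had 5 counts and 1 count.

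Transcript models divided the 38 genes. The authors' annotation lists a single model for 13 of 38, among them Hmgcs1, Fdps, Srebf2, Scd1, Scd2, Elovl7 and Ugt8a, so nothing can be divided there. Of the 25 genes with several models, 9 had one that carried 90% or more of the TPM. Protein-coding models held at least 90% of the TPM in 27 of 38 genes and less than 50% in 3, namely Fasn, Lss and Msmo1. Among all 8592 protein-coding genes at 10 TPM or more the share under 50% was 9.43%, against 8.57% of the 35 genes of the set at that level.

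**Figure D2:**
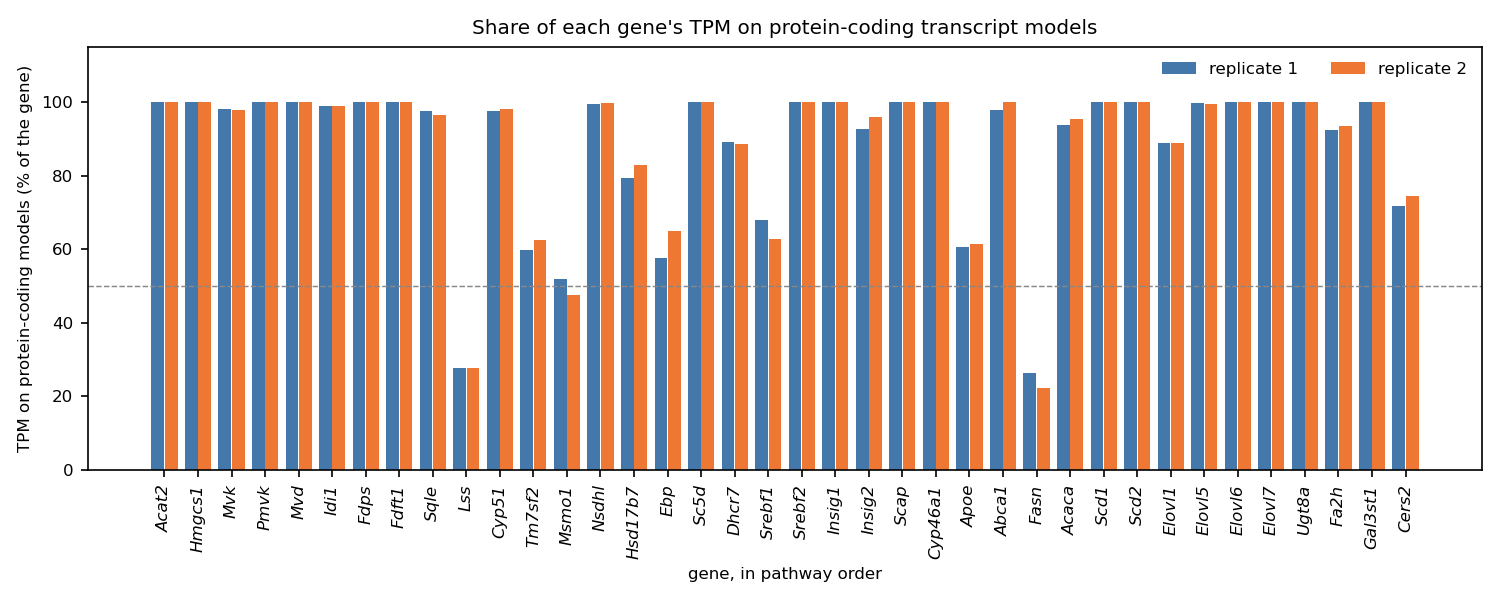
Percent of each gene's TPM held by protein-coding transcript models, in pathway order, with a blue bar for replicate 1 and an orange bar for replicate 2; the dashed line marks 50%. Fasn and Lss lie below the line in both libraries at 22.3% to 27.8%, Msmo1 lies on it, and 27 genes are at 90% or more.

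Fasn was the clearest case. The retained-intron model Fasn-203 held 37.1% and 40.6% of its TPM and the retained-intron model Fasn-202 held 36.5% and 37.0%. The coding model Fasn-201 held 26.5% and 22.3%. By expected counts Fasn-201 came first instead, with 83.4% and 80.1% of the gene's counts, and Fasn-203 stayed above Fasn-202. The coding model changes place because TPM divides by length. Fasn-203 and Fasn-202 are 971 and 762 bases long in the authors' annotation, against 9587 for Fasn-201. Both short models lie near the 3′ end: Fasn-202 spans exons 38 to 41 of the 43 exons of Fasn-201 and Fasn-203 spans exons 41 to 43.

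Splice junction reads of the mm9 table bear on the same stretch. Reads over the 42 junctions of Fasn-201 rose from 137 and 99 at the first junction to 1484 and 1760 at the last, for the replicates numbered 1 and 2 in that table, whose numbers name no library. With the junctions divided into 3 parts from the 5′ to the 3′ end, the mean of the last part was 3.04 and 3.67 times that of the first. Reads thus covered the 3′ part of spliced Fasn more than its 5′ part. Over the 24 genes with at least 6 junctions in the leading coding model, the median of this ratio was 1.43 and 1.60, and it was above 1 in 20 of 24 for each number. Fdps had the highest ratio (4.47 and 4.87) and Elovl1 the lowest (0.681 and 0.718). The last of the 8 Elovl1 junctions had 0 reads for each number, which lowers its ratio. Dhcr7 had 0 reads at its first junction, which raises its ratio. Such junctions of a model were kept as 0, so the ratios and the 20 of 24 can depend on them. How far this slope moves the TPM of the short Fasn models was not tested.

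**Figure D3:**
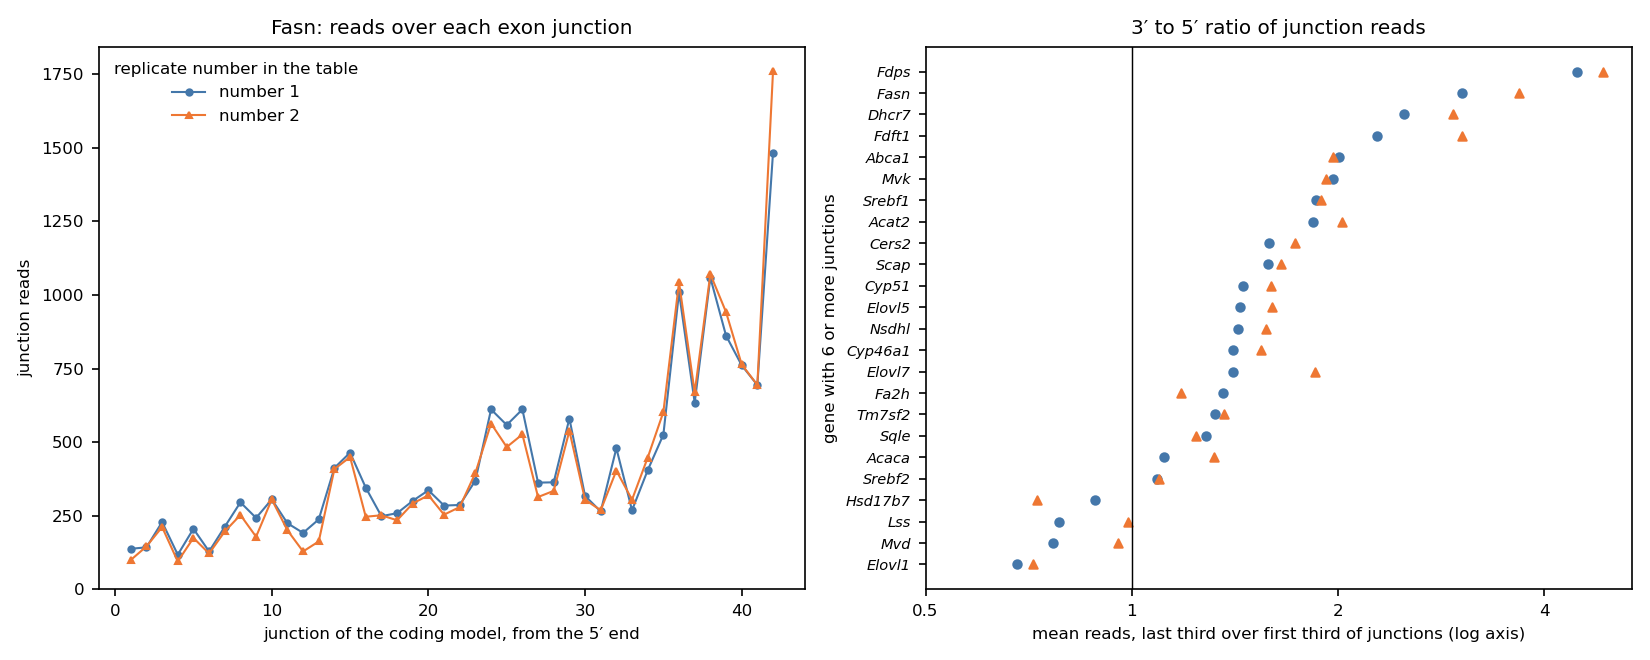
Left, reads over each of the 42 exon junctions of the coding Fasn model from the 5′ end, for the replicates numbered 1 and 2 in the junction table. Right, for 24 genes with 6 or more junctions, mean reads of the 3′-most of 3 parts of the junctions divided by those of the 5′-most part, on a log axis, in the same colours and symbols. Fasn reads rise from 137 and 99 to 1484 and 1760, and 20 of 24 genes lie right of 1 for each number.

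Lss was led by the retained-intron model Lss-204 with 31.3% and 32.1% of TPM, also by counts (45.5% and 46.7%), and its coding model Lss-201 held 23.9% and 26.9%. In Msmo1 the lead changed between libraries: the coding Msmo1-201 held 49.4% and 45.5%, and the processed transcript Msmo1-206 held 43.7% and 48.0%. Apoe had the coding Apoe-209 at 49.0% and 52.0% beside the processed transcript Apoe-202 at 39.5% and 38.7%. Apoe therefore kept 1120 ± 22.3 TPM (n = 2) on protein-coding models.
In Ebp, the retained-intron model Ebp-204 held 33.7% and 25.6%, or 15.1 and 9.70 TPM, while the coding Ebp-201 had 25.8 and 24.6 TPM. In Dhcr7, the short coding model Dhcr7-209 had 11.04 and 5.14 TPM, while the leading Dhcr7-202 had 31.4 and 29.9 TPM. The lower TPM of Ebp and Dhcr7 in replicate 2 thus lay mostly on short models, and their gene counts were nearly equal (2655 and 2541 for Ebp, 4554 and 4557 for Dhcr7).
Second models above 20% in both libraries were also seen for Elovl1 (Elovl1-203, 26.9% and 27.3%, beside Elovl1-207, 52.3% and 50.1%), Mvk (Mvk-202, 21.99% and 20.5%) and Gal3st1. In Gal3st1 the models Gal3st1-203 (50.9% and 49.9%) and Gal3st1-202 (34.1% and 29.1%) are both protein-coding.

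Srebf1 gave different pictures by model and by junction. The 1a and 1c forms of SREBP1 differ in their first coding exon, shown here as the first 120 bases of each coding sequence with the bases of the first exon in capitals. The 1a exon (chr11:60220453-60220604) gives 91 coding bases and the 1c exon (chr11:60210336-60210465) gives 19, after which the sequences are shared.
Srebf1a: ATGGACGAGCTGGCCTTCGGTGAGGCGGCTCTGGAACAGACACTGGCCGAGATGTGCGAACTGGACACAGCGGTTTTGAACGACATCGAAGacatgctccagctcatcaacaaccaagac
Srebf1c: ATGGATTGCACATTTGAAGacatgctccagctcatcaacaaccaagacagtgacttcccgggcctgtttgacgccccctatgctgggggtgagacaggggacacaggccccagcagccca
In the junction table the 1c exon was joined to the shared second exon by 92 and 76 reads and the 1a exon by 43 and 32 reads. The 1c share was 68.1% and 70.4%, and 69.1% over both (95% exact binomial interval 62.9% to 74.9%, which covers counting error only). By TPM the order was the opposite: the 1a model Srebf1-201 had 13.1 and 13.4 TPM and the 1c model Srebf1-207 had 4.80 and 4.23 TPM, a 1c share of 26.8% and 24.0%. A further coding model, Srebf1-203, had 7.32 and 8.85 TPM and starts within the shared second exon, so it holds neither first exon. Of these values, the junction reads alone were counted at the first exons themselves.

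In other genes the split between alternative first exons was mostly uneven. In several, 1 first exon took nearly all reads, such as 99.8% in Sc5d and 98.1% in Elovl1. In Cers2 the leading first exon took 81.2% of 1626 junction reads (95% exact interval 79.2% to 83.1%) and a downstream one took 17.2%. In Scap the leading one took 88.2% of 144 reads (81.8% to 93.0%). In Gal3st1 the most used donor, which does not end an annotated first exon, took 52.9% of 189 reads (45.5% to 60.2%). The first exons took 42.3% and 4.76%. That donor had 39 and 61 reads against 46 and 34 for the leading first exon, so the order of these 2 differed between the replicate numbers. Acaca had only 67 reads at its shared exon, so its starts were not separable at this depth.

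Neighbouring copies of similar sequence limit how far Scd2 and Acat2 can be read. The Scd genes lie side by side on chromosome 19, and the coding sequences of Scd1 and Scd2 were 90.3% identical over 1065 bases, those of Scd2 and Scd4 83.9% over 1059 bases. In mm10, Scd3 had 4.80 and 4.58 TPM and Scd4 had 20 and 16 counts. The mm9 junction table nonetheless listed 3609 and 3188 reads joining exons of Scd2 to exons of Scd4, beside 26861 and 26610 within Scd2 and 7 and 5 within Scd4. The exons concerned are shown as the first 40 coding bases of exon 4 and of exon 6, with bases that differ between the copies in capitals.
Scd2 exon 4: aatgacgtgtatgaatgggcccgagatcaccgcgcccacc
Scd4 exon 4: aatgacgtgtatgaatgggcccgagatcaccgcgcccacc
Scd2 exon 6: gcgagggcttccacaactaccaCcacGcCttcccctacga
Scd4 exon 6: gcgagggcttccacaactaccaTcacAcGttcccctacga
The copies did not differ in the 40 bases of exon 4 and differed in 3 of 40 in exon 6. A read that ends within such bases cannot be placed by them, and the mm9 reads of Scd2 are uncertain to that extent. Acat2 and its neighbour Acat3 on chromosome 17 were 97.7% identical over 1191 coding bases. Junction reads were 1435 and 1563 within Acat2, 529 and 552 within Acat3 and 867 and 901 between them, while mm10 gave Acat3 only 90.2 and 119.8 counts against 3088 and 3515 for Acat2. The SD that the mm10 quantification gives for assigning reads was at most 0.140% of the count for Acat2 and 0.0013% for Scd2. The mm9 junction reads and the mm10 counts thus divided Acat2 and Acat3 differently, and the Acat2 level is uncertain to that extent. Idi1 had 4573 and 5007 counts in mm10 but only 59 and 33 reads at the first of its 4 junctions and 2 to 10 at the others, so its level has little junction support.

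Motif searches on both strands covered the 250 bases before each start in 46 RefSeq windows of 32 of the 38 genes. Fa2h, Fdft1, Fdps, Scd1, Scd2 and Sqle were not matched. TCACNCCAC was found in 1 of 32, Hmgcs1, against 1.22% of 27025 genes with a window. A longer form of the sterol element and the LXR direct repeat with a spacer of 4 were found in none of the 32, against 0.0814% and 0.0148% of genes. CCAAT was found in 24 of 32 (75.0%), against 37.5% of all genes with a window and 40.6% of the 6887 protein-coding ones at 10 TPM or more. By window, it was in 56.5% of the 46 and in 33.8% of all 32851.
GGGCGG was found in 25 of 32 (78.1%), against 35.4% of all genes and 67.5% of the protein-coding genes at 10 TPM or more. CACGTG was found in 8 of 32 (25.0%), namely Hsd17b7, Sc5d, Dhcr7, Insig1, Scap, Abca1, Elovl5 and Cers2, against 6.86% and 10.6%. By window, GGGCGG was in 63.0% of the 46 against 32.7% of all windows, and CACGTG in 17.4% against 6.02%. All 8 enzymes from lanosterol to cholesterol held CCAAT and GGGCGG, a grouping looked at after the matches were seen. A match is a description of letters, not of a bound site.

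The libraries were then compared gene by gene. Counts were scaled by TMM, and the log2 ratio of replicate 2 over replicate 1 was given a 95% exact binomial counting interval. None of the 38 genes was 1.2-fold apart, against 15.1% of the 15542 genes with at least 100 counts (7.99% higher in replicate 2 and 7.15% higher in replicate 1), and none was 1.5-fold apart, against 2.71%. The counting interval excluded equality for 26 of 38, against 45.7%. Each of the 38 had at least 1800 counts in each library, far above the minimum of 100. The interval narrows and ratios scatter less as counts rise, so these shares are not matched for depth. The median ratio was 0.10, with 29 genes above 0 and 9 below, against a median of 0.00 over all genes. The second list of these pathways did not show the same shift. Its medians were -0.02 for sterol synthesis (4 of 8 above 0) and -0.02 for sterol uptake, trafficking and control (10 of 26). They were 0.03 for fatty acid supply, elongation and desaturation (14 of 24) and -0.004 for sphingolipid and ether lipid genes (13 of 28). Spike-in scaling and ratios of TPM + 1 moved the median of all genes to -0.05 and -0.06, and the median of the 38 relative to it stayed at 0.10 and 0.09. The median size of the difference, 0.0989, was close to the 0.0946 of all genes. The deposited mm9 RPKM values differed here: 7 of 37 matched genes were at least 1.2-fold apart by RPKM + 1 (6.83% of genes), and Fasn was 1.5-fold apart with 13.2 and 22.2 RPKM, without library names for the 2 numbers.

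**Figure D4:**
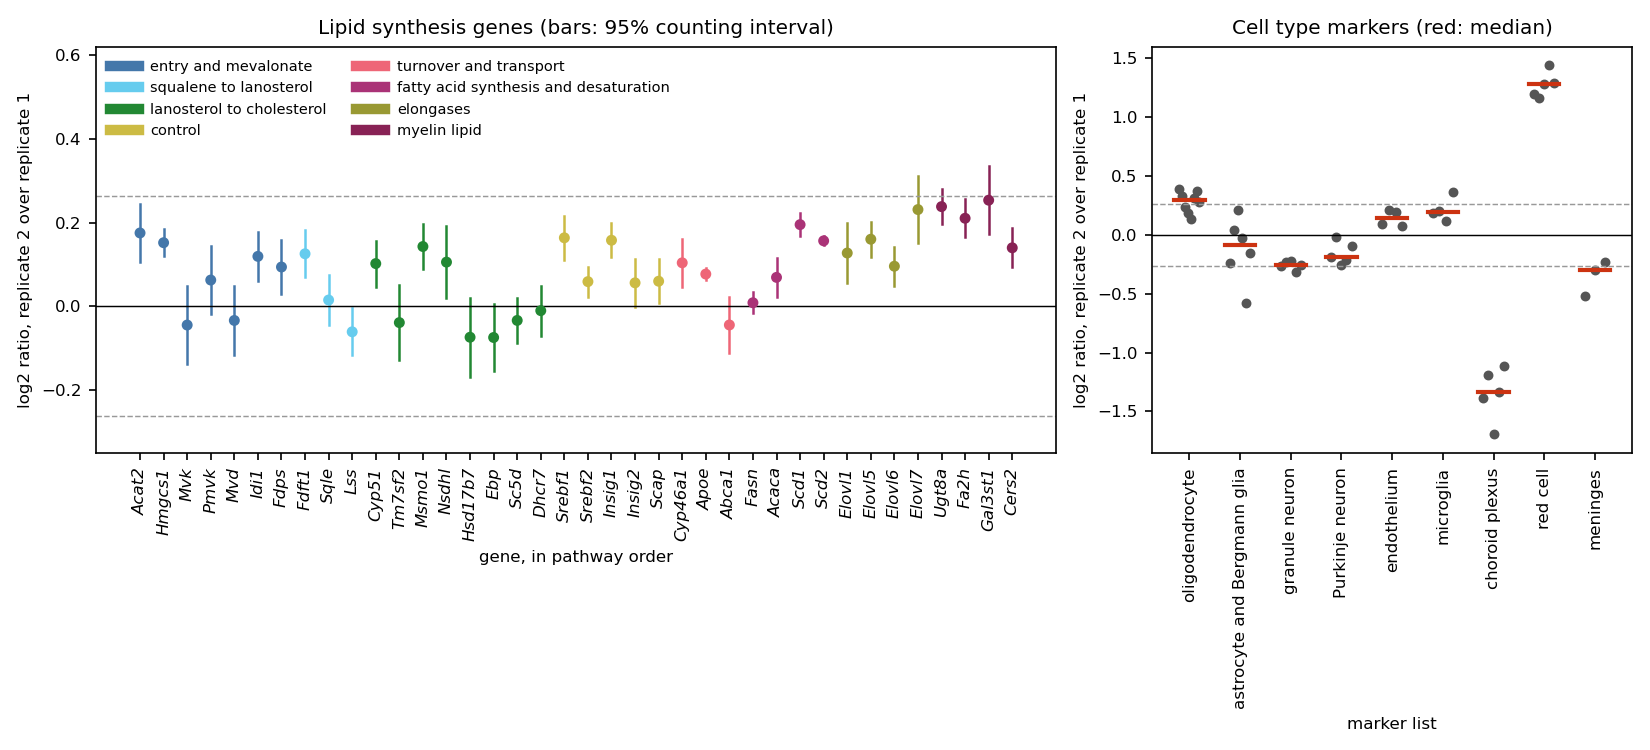
Left, log2 ratio of counts of replicate 2 over replicate 1 for the 38 genes in pathway order, coloured by step, with 95% counting intervals as bars; dashed lines mark 1.2-fold. Right, the same ratio for cell type marker lists, 1 point per gene and the median in red, on a wider axis. The 4 myelin lipid genes lie at 0.14 to 0.25, and the 8 oligodendrocyte markers at 0.13 to 0.39.

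The myelin lipid genes were all higher in replicate 2. Gal3st1 had 2303 and 2768 counts, a log2 ratio of 0.25 (0.17 to 0.33), and Ugt8a had 8575 and 10196 counts, a ratio of 0.24 (0.20 to 0.28). Fa2h had 7288 and 8500 counts (0.21, from 0.17 to 0.26), and Cers2 had 7128 and 7916 counts (0.14, from 0.09 to 0.19). These 4, the 4 elongases (median 0.14, Elovl7 highest at 0.23), Scd1 (0.20) and Scd2 (0.16) were above 0 under each of 9 settings, and Fasn (0.01) lay at the median of all genes. Several of these settings use the same counts with nearly the same scaling, and the replicate numbers of the mm9 setting name no library. On protein-coding models Fasn was at -0.12, against a median of -0.06 over the 13990 genes with TPM on such models in both libraries.
Oligodendrocyte markers were higher in the same library: 8 of 8 were above 0 with a median of 0.29, their summed level was 3185 and 3742 TPM, and Mog and Mag, which help define the cell type, were both present (Mag 448 and 496 TPM, Mog 94.7 and 112.5 TPM). Fewer cells of a type and less RNA per cell cannot be told apart in bulk tissue, and the part of the marker differences in the myelin lipid ratios was not tested. Microglia markers (4 of 4 above 0, median 0.19) and endothelial markers (4 of 4, median 0.14) were also higher in replicate 2, and those of astrocytes and Bergmann glia were mixed (2 of 6 above 0, median -0.09). Markers of granule neurons (median -0.26, 5 of 5 below 0) and Purkinje neurons (median -0.19, 5 of 5 below 0) were lower in replicate 2. Adipocyte markers were near 0, with a summed level of 0.34 and 0.33 TPM over 5 genes and Lep at 0.00 and 0.01.

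The sterol steps showed no common shift. The enzymes from lanosterol to cholesterol had a median of -0.02, with 3 of 8 above 0 (Msmo1 0.14, Nsdhl 0.11 and Cyp51 0.10). On protein-coding models Msmo1 was at -0.01, against a median of -0.06 over the genes with TPM on such models. Hsd17b7 and Ebp were lowest, both at -0.07, with intervals that include 0, and by mm9 RPKM + 1 all 8 enzymes were above 0, where the median of all genes was 0.02. The entry and mevalonate enzymes had a median of 0.09, with Acat2 (0.18) and Hmgcs1 (0.15) highest. In the control group Srebf1 (0.16) and Insig1 (0.16) stood above Srebf2, Insig2 and Scap (all 0.06), and these 3 were -0.01 to -0.02 as ratios of TPM + 1, where the median of all genes was -0.06. Ebp and Nsdhl are X-linked, and their ratios had opposite signs except by mm9 RPKM + 1.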

How the data were processed

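Per the file headers and library index, each library was quantified by the authors on mm10 with GENCODE M4 from transcriptome alignments, with column names as RSEM writes them. Aligner and versions: not given in the sources used here. Deposited values are expected counts (estimated fragments, rounded to whole numbers here for DESeq2 size factors), TPM relative to all entries including spike-ins, FPKM, and the percent of gene TPM per transcript. The deposited mm9 tables hold RPKM per Ensembl 65 gene and read counts per splice junction. The mm9 replicate numbers name no library, and builds were never combined by coordinate.

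Names and classes came from GENCODE M21 (42462 of 43346 genes matched), promoter sequences from RefSeq (GRCm38.p6) and transcript sequences from GENCODE M21. One group of 2 libraries allows no test, so no p-values were computed. Values are per library, mean and SD. Ratios are differences of log2 CPM (TMM scaling in R 4.3.3 with edgeR 4.0.16, prior count 2, at least 100 counts over both libraries); the step was tested on simulated data. Alternatives were DESeq2 1.42.0 size factors, spike-in totals, TPM + 1, RPKM + 1, other count minimums and prior counts, posterior mean TPM, leaving out each library and, added after seeing the data, protein-coding models only. Coding sequences were aligned with Biopython 1.88. No column of another sample was present.

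Named genes are the 38 of the set, the highest 3 and the lowest of each group of the wider pathway list, and leading transcripts with a second at 20% or more in both libraries. A few further genes under the rule are left unreported and stay in the counts. The genes, lists and rules were chosen with earlier results of these data known.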

Additional observations from a re-analysis of the deposited data

How the results depend on the processing

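No paired analysis was possible because the 2 libraries form a single group. The median level of the genes was 41.2 TPM, 42.4 TPM by posterior mean, 41.5 to 43.1 TPM leaving out a library, and 33.8 TPM on protein-coding models only, an alternative chosen after seeing the data. Their median percentile, 83.6, was 84.0 by posterior mean, 83.2 by mm9 RPKM, 73.0 among protein-coding genes at 1 TPM or more, and 83.9 to 84.0 leaving out a library. The median log2 ratio, 0.10, was 0.035 as TPM + 1, where the median of all genes was -0.058. It was 0.036 on protein-coding models, where the median of the genes with TPM on such models was -0.063. By mm9 RPKM + 1, 7 genes were at least 1.2-fold and 1 at least 1.5-fold apart, against 0 and 0; the cause was not tested. Genes led by a model that is not protein-coding numbered 2, but 1 by share of counts, which divides by no length, and 2 to 3 leaving out a library. The Srebf1c share, 69.1% by junction reads, was 25.4% by TPM of the models, an alternative also chosen after seeing the data; the cause was not tested. The other 41 alternatives set at the start left these and the other summary values within the spread or, for counts of genes, within 1.5-fold. Some of them could not change a value. Every gene reached 1 TPM in both libraries, and the minimum of 10 junction reads was already met in the main setting. Precision is limited by 2 libraries, and for junctions by reads.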
